A study of Mus musculus with 21 samples.

Results

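The genes described here are Ppara, Ppargc1a, Ucp3, Angptl4, Plin2, Plin5, Pnpla2, Lpl, Acot1 and Cd36, a set built around the fatty acid receptor PPAR alpha, several of its target genes, and the storage and release of triglyceride in the heart. They were taken by symbol from the table of read counts, which identifies genes by Ensembl identifier: 10 of 10 symbols had a row, out of 55450 genes in all. The counts of all 10 passed the filter on low counts, which kept 17309 genes for testing. The genes were chosen with earlier results of these data known, so their counts beside those of all genes are descriptions. Left ventricular RNA was sequenced in 21 male mice of strain 129S6/SvEv. The mice were wild-type (WT) littermates or heterozygous carriers of Myh6+/R404Q, a missense allele of the cardiac alpha myosin heavy chain that is called R403Q and serves as a mouse model of hypertrophic cardiomyopathy. They ate a purified control diet with 10% of its energy from lard (CD) or the same diet with 0.15 mg of empagliflozin, an inhibitor of the renal glucose transporter SGLT2, per g (EMPA). The groups were WT-CD (n = 5), R403Q-CD (n = 7), WT-EMPA (n = 5) and R403Q-EMPA (n = 4). The study describes this sequencing in mice 12 weeks old after 2 weeks of treatment, whereas the sample labels describe treatment for 16 weeks. The allele is carried in every cell, Myh6 being transcribed in cardiomyocytes, and every carrier also had a wild-type copy.

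PPAR alpha is a nuclear receptor that binds fatty acids and, paired with a retinoid X receptor, switches on genes for taking up and oxidizing fat, with the product of Ppargc1a as a coactivator. Lipoprotein lipase on the capillary wall frees fatty acids from circulating triglyceride, Cd36 carries them into the cardiomyocyte, and what is not burned at once is held in lipid droplets coated by perilipins and emptied by adipose triglyceride lipase. The heart burns mostly fat, and fasting raises many PPAR alpha target genes in it.

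PPAR alpha and its partner bind a direct repeat of a short hexamer with 1 base between the copies, and it was asked whether the members share these letters next to their transcription start. The motif AGGTCANAGGTCA was searched on both strands, with up to 2 mismatches and N standing for any base, in the 250 bases before the RefSeq start of 8 of the 10 genes on GRCm38.p6. No RefSeq window was at hand for Angptl4 and Lpl. It was found once each before Ucp3, Plin2 and Cd36, which all passed the test of diet given below, and not before Acot1, which also passed, or Plin5, Pnpla2, Ppara and Ppargc1a, which did not. Of 32851 RefSeq windows of this length, 3.24% hold such a match, and 0.484% hold one with at most 1 mismatch, which none of the members did. The 3 windows are shown because they carry the match, 5′ to 3′ along each gene's own strand with the matched letters in capitals. They lie at chr7:100472741-100472990 on the plus strand for Ucp3, at chr4:86670060-86670309 on the minus strand for Plin2 and at chr5:17835897-17836146 on the minus strand for Cd36.
Ucp3: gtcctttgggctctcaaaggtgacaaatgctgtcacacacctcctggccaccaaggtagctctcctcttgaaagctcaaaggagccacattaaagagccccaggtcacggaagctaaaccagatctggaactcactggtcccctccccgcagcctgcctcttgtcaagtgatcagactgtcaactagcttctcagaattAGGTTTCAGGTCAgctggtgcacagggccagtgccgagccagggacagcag
Plin2: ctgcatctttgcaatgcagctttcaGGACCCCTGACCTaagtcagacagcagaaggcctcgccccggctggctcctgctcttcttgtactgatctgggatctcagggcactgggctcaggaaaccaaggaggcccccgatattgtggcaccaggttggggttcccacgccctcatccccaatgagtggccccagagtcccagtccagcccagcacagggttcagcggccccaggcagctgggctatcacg
Cd36: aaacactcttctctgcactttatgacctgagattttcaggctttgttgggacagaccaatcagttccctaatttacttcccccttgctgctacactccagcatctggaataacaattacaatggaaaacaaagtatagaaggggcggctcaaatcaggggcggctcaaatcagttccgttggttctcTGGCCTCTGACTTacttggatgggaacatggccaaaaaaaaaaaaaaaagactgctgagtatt
The match of Ucp3 reads along the gene's strand, at positions -51 to -39 from the start, and those of Plin2 (-225 to -213) and Cd36 (-63 to -51) read on the opposite strand. The RefSeq start used for Cd36 did not open a transcript of the GENCODE annotation, so that window may not be the promoter used in the heart. These are matches of letters and not measured binding sites, and a window without one says nothing of the receptor.

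Each mouse gave between 23491535 and 43539684 counts (median 33329649). The labels give each mouse's cage, and each cage held mice of a single diet, 4 cages on CD and 3 on EMPA, so that diet and cage cannot be told apart, whereas WT and R403Q mice shared all 4 CD cages and 2 of the EMPA cages. One library stood apart: R403Q-CD replicate 2 had 62294 CPM (counts scaled to a common library total) over 8 cardiomyocyte markers, against 81271 to 109001 CPM in the other 20 mice, and the highest sums of the fibroblast (5184 CPM against at most 2713 CPM), atrial (11604 CPM against at most 3854 CPM), macrophage (681 CPM against at most 530.3 CPM) and skeletal muscle markers (3.91 CPM against at most 3.48 CPM). Its sum of red blood cell markers (877 CPM) was below that of 19 of the other 20 mice. Its atrial sum was mostly Nppa (10996 CPM), so that sum follows this gene more than the others of the list. In bulk tissue, fewer cells of a type and less RNA per cell cannot be told apart, and results are given below also without this mouse. Levels are CPM scaled by TMM, a factor that evens out library composition, and differences are log2 fold changes from edgeR's quasi-likelihood test with Benjamini-Hochberg adjustment over all 17309 genes.

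With EMPA, 5 of the 10 genes were higher when the diets were compared over both genotypes: Angptl4 2.96-fold, Acot1 2.79-fold, Ucp3 1.89-fold, Plin2 1.35-fold and Cd36 1.2-fold, at an adjusted p under 0.05. In this comparison of 9 EMPA with 12 CD mice, 1.98% of all genes tested were higher and 0.936% lower at the same threshold, 2.91% in all. Plin5, Pnpla2, Lpl, Ppara and Ppargc1a did not pass, but the fitted difference was above 0 for all 10 genes, as for 47.6% of all genes, with a median log2 fold change of 0.35 against -0.0080 over all genes tested. Without R403Q-CD replicate 2, 7 genes passed, Lpl (adjusted p = 0.0324) and Plin5 (adjusted p = 0.0353) being added. DESeq2's Wald test called 8 of the 10, and a fit in limma's voom, with cage as a random effect, called 3, Angptl4, Acot1 and Plin2.

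**Figure D1:**
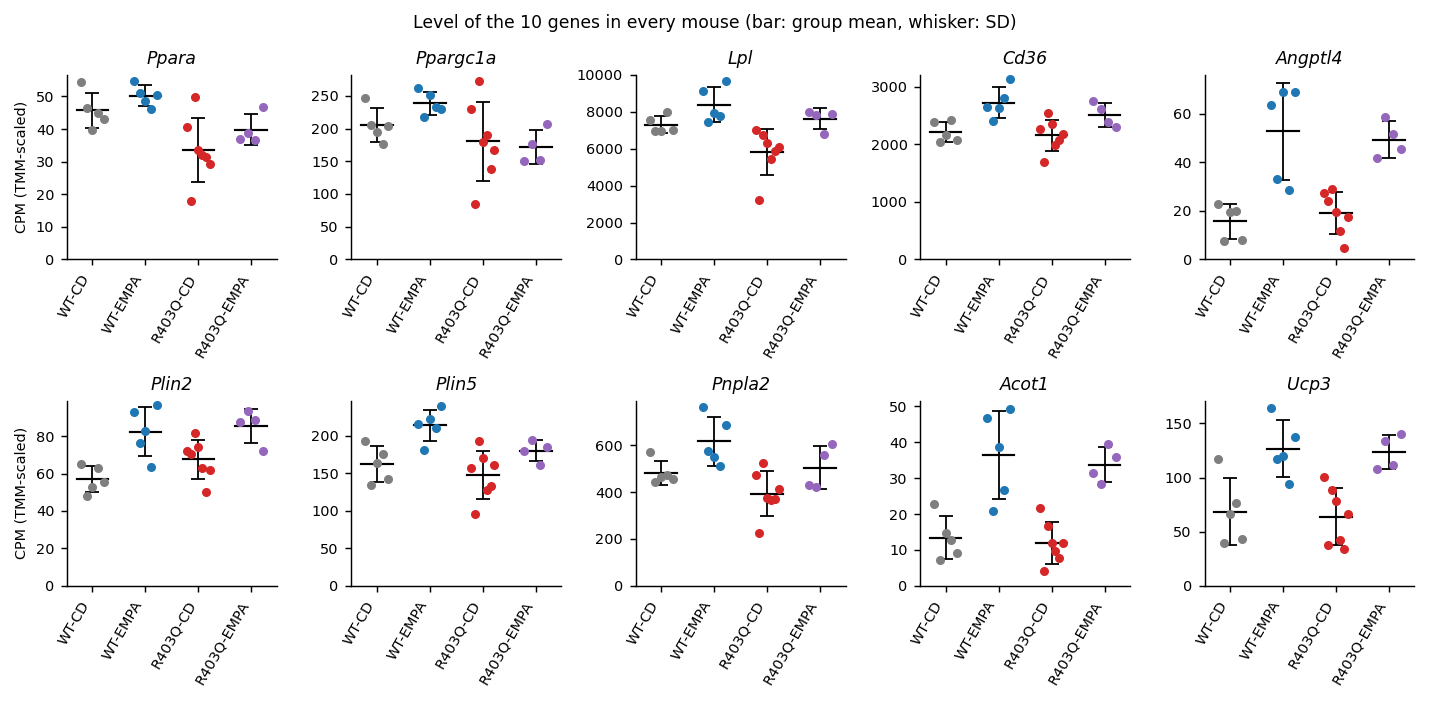
Level of each gene in CPM (vertical axes from 0, 1 panel a gene) in every mouse of WT-CD, WT-EMPA, R403Q-CD and R403Q-EMPA; points are mice, bars group means and whiskers SD. Angptl4, Acot1 and Ucp3 show every R403Q-EMPA mouse above every R403Q-CD mouse, as do 0.953% of all genes, while Ppara and Ppargc1a overlap between diets within each genotype.

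The genes differed widely in abundance. Per kilobase of exon, WT-CD hearts held most Lpl (696 ± 42.4 CPM per kb, SD, n = 5) and Cd36 (617 ± 48.7 CPM per kb), then Pnpla2 (159 ± 16.9 CPM per kb), Plin5 (77.5 ± 11.6 CPM per kb), Ppargc1a (31.2 ± 3.96 CPM per kb), Ucp3 (21.9 ± 9.93 CPM per kb), Plin2 (16.2 ± 1.99 CPM per kb) and Ppara (11.9 ± 1.42 CPM per kb), with Angptl4 (4.42 ± 2.04 CPM per kb) and Acot1 (3.42 ± 1.54 CPM per kb) at the bottom. The ranges of mice overlapped between some neighbours in this order, such as Angptl4 and Acot1. Angptl4, Acot1 and Ucp3, the 3 genes with the widest differences by diet, also had the widest spread between CD mice relative to their means.

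Acot1, the cytosolic thioesterase that splits acyl-CoA into free fatty acid and CoA, lies on chromosome 12 (84009490-84018371, plus strand, GRCm38). Its level in WT-CD mice was 22.8, 7.32, 14.8, 12.8 and 9.23 CPM, and in WT-EMPA mice 46.7, 20.98, 38.7, 26.8 and 49.3 CPM. R403Q-CD mice ranged from 4.10 to 21.6 CPM (median 11.8), and R403Q-EMPA mice had 31.5, 28.3, 39.5 and 35.8 CPM. All R403Q-EMPA mice were above all R403Q-CD mice, which holds for 0.953% of all genes, and 4 of 5 WT-EMPA mice were above every WT-CD mouse, WT-EMPA replicate 2 lying within their range. The log2 fold change was 1.45 ± 0.34 (SE) in WT and 1.51 ± 0.32 in R403Q mice, neither past the threshold (adjusted p = 0.126 and 0.103, edgeR), and 1.48 ± 0.24 over both (adjusted p = 0.00466). Without R403Q-CD replicate 1, the highest mouse of its group, the difference in R403Q mice passed (1.72, adjusted p = 0.0464). Acot1 has close paralogs beside it: 12.4% of the 100-base windows of its transcripts also occur in Acot2 to Acot6, and reads from these may not be placed uniquely and then go uncounted.

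Ucp3, an uncoupling protein of the inner mitochondrial membrane of muscle that rises with fatty acid supply, lies on chromosome 7 (100472990-100486432, plus strand). The WT-CD mice had 117, 39.5, 66.6, 76.6 and 43.3 CPM and the WT-EMPA mice 164, 117, 120, 94.2 and 138 CPM. Levels in R403Q-CD ran from 34.0 to 101 CPM (median 66.1), and in R403Q-EMPA they were 108, 134, 112 and 140 CPM. As for Acot1, R403Q mice on the 2 diets did not overlap, and WT-CD replicate 1 reached into the range of WT-EMPA. The log2 fold change by diet was 0.89 ± 0.29 in WT (adjusted p = 0.279), 0.95 ± 0.28 in R403Q (adjusted p = 0.181) and 0.92 ± 0.20 over both genotypes (adjusted p = 0.0211, edgeR). The pooled call was lost without R403Q-EMPA replicate 4 (0.89, adjusted p = 0.0534) and with cage as a random effect (0.99, adjusted p = 0.0573). Its neighbour and paralog Ucp2 shares no 100-base window with it.

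Angptl4 encodes a secreted inhibitor of lipoprotein lipase that is induced by fatty acids and fasting, and it lies on chromosome 17 (33773750-33781830, minus strand). WT-CD mice had 22.9, 7.58, 19.8, 19.9 and 8.15 CPM, against 63.8, 33.2, 69.1, 28.8 and 69.1 CPM in WT-EMPA. The 7 R403Q-CD mice lay between 4.85 and 29.0 CPM (median 19.7) and the R403Q-EMPA mice at 41.8, 58.8, 51.8 and 45.4 CPM. The diets did not overlap in either genotype: all WT-EMPA mice were above all WT-CD mice, as for 1.87% of genes, and all R403Q-EMPA mice above all R403Q-CD mice. Within WT-EMPA, 3 mice were at 63.8 CPM or above and the other two at 28.8 and 33.2 CPM. The log2 fold change was 1.76 ± 0.38 in WT (adjusted p = 0.126), 1.37 ± 0.36 in R403Q (adjusted p = 0.143) and 1.57 ± 0.26 over both (adjusted p = 0.0053, edgeR).

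The fitted differences by diet were smaller for Cd36 and for Lpl, the lipase that Angptl4 inhibits. Cd36, the fatty acid translocase of the cell surface (chromosome 5, 17781690-17888801, minus strand), stood at 2382, 2034, 2169, 2416 and 2076 CPM in WT-CD and at 2643, 2410, 2625, 2806 and 3139 CPM in WT-EMPA. It ran from 1695 to 2535 CPM in R403Q-CD (median 2186) and was 2753, 2606, 2391 and 2299 CPM in R403Q-EMPA. All 9 EMPA mice were above the median CD mouse, although the ranges overlapped in both genotypes. The pooled log2 fold change was 0.26 ± 0.07 (adjusted p = 0.0473, edgeR), a call that held in 5 of the 21 fits that each left out 1 mouse (0.23 to 0.28, adjusted p from 0.0221 to 0.101), and that was lost with RLE scaling, which uses median ratios (adjusted p = 0.0516), no filter on low counts (adjusted p = 0.100), limma on the deposited log2 values (adjusted p = 0.0541) and cage as a random effect (adjusted p = 0.111).

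Lpl, the lipase itself (chromosome 8, 68880491-68907448, plus strand), was the most abundant member. WT-CD mice ranged from 6967 to 7975 CPM, WT-EMPA mice from 7438 to 9685 CPM, R403Q-CD mice from 3222 to 7028 CPM (median 6103) and R403Q-EMPA mice from 6784 to 7994 CPM. The lowest value was that of R403Q-CD replicate 2. The pooled log2 fold change by diet was 0.30 ± 0.10 (adjusted p = 0.111, edgeR), and it was 0.24 (adjusted p = 0.0324) without that mouse.

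Of the lipid droplet genes, Plin2, the perilipin that coats droplets in most cells and follows their fat content, passed the test by diet. On chromosome 4 (86648386-86670060, minus strand), it had 65.1, 48.2, 52.7, 62.7 and 55.7 CPM in WT-CD, 92.7, 76.5, 82.7, 63.7 and 96.4 CPM in WT-EMPA, 50.1 to 81.5 CPM in R403Q-CD (median 70.4) and 87.5, 93.3, 88.6 and 72.0 CPM in R403Q-EMPA. Only WT-EMPA replicate 4 lay within the WT-CD range and only R403Q-EMPA replicate 4 within that of R403Q-CD. The log2 fold change was 0.54 ± 0.12 in WT (adjusted p = 0.126), 0.34 ± 0.12 in R403Q (adjusted p = 0.244) and 0.44 ± 0.09 over both (adjusted p = 0.012, edgeR). On CD it was the sole one of the 3 lipid droplet members, Plin2, Plin5 and Pnpla2, with a fitted level above WT in R403Q mice (0.25 ± 0.11, adjusted p = 0.218).

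Plin5, the perilipin of oxidative muscle that ties droplets to mitochondria (chromosome 17, 56111601-56117596, minus strand), was higher in all 9 EMPA mice than in the median CD mouse, with a pooled log2 fold change of 0.34 ± 0.10 that missed the threshold (adjusted p = 0.0572, edgeR). It ranged from 134 to 193 CPM in WT-CD, 181 to 239 CPM in WT-EMPA, 95.9 to 193 CPM in R403Q-CD (median 157) and 161 to 194 CPM in R403Q-EMPA. Left out singly, WT-CD replicate 1 (0.0469) and R403Q-CD replicates 2 (0.0353) and 3 (0.0215) each brought its adjusted p under 0.05. Pnpla2, adipose triglyceride lipase, which opens the breakdown of stored triglyceride (chromosome 7, 141455198-141460743, plus strand), ranged from 444 to 570 CPM in WT-CD, 511 to 762 CPM in WT-EMPA, 227 to 525 CPM in R403Q-CD (median 375) and 422 to 606 CPM in R403Q-EMPA. Its pooled log2 fold change was 0.36 ± 0.12 (adjusted p = 0.0882, edgeR), and 0.40 (adjusted p = 0.0379) without R403Q-CD replicate 3. WT-CD and R403Q-CD mice overlapped for both genes.

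In the pooled comparison, the regulators had the smallest fitted differences by diet of the 10 genes. Ppara, the receptor (chromosome 15, 85734983-85802819, plus strand), stood at 54.3, 46.6, 39.7, 44.9 and 43.0 CPM in WT-CD and at 54.9, 50.9, 48.6, 46.3 and 50.4 CPM in WT-EMPA. It ranged from 17.9 to 49.7 CPM in R403Q-CD (median 31.9), and R403Q-EMPA mice had 37.0, 38.8, 36.8 and 46.8 CPM. The diets overlapped in both genotypes, with a pooled log2 fold change of 0.19 ± 0.12 (adjusted p = 0.362, edgeR). Ppargc1a, the coactivator of mitochondrial genes (chromosome 5, 51454250-51567726, minus strand), had a pooled log2 fold change of 0.07 ± 0.14 (adjusted p = 0.814). Its levels were 176 to 247 CPM in WT-CD, 218 to 261 CPM in WT-EMPA, 85.2 to 273 CPM in R403Q-CD (median 180) and 151 to 206 CPM in R403Q-EMPA. All R403Q-EMPA mice were below all WT-EMPA mice in Ppargc1a, which holds for 3.41% of all genes.

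**Figure D2:**
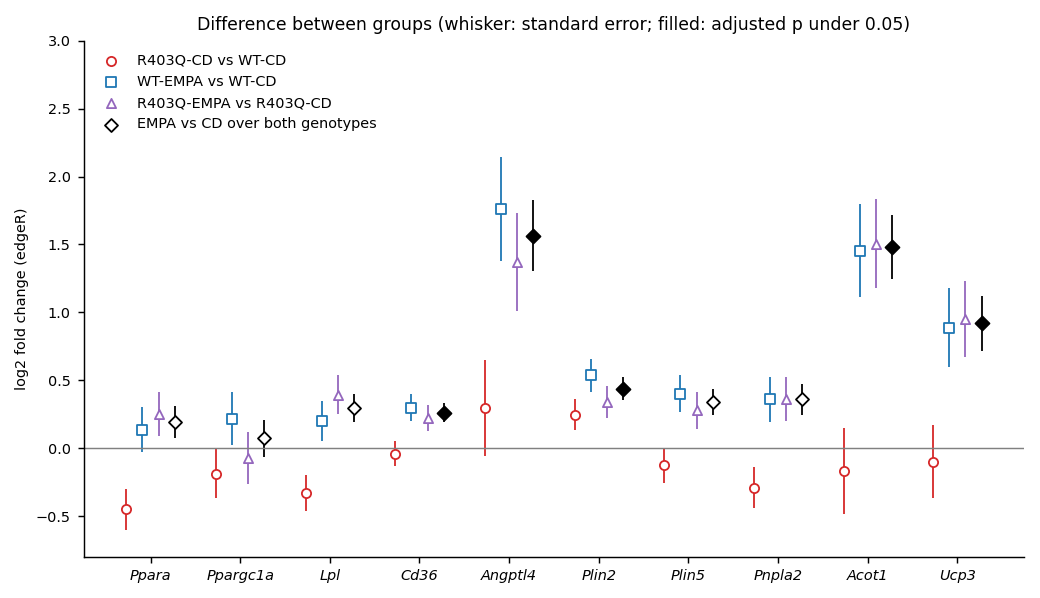
Log2 fold change (edgeR, vertical axis) of each gene between R403Q-CD and WT-CD, between diets within WT and within R403Q mice, and between diets over both genotypes; whiskers are standard errors and filled symbols have an adjusted p under 0.05. Angptl4, Acot1, Ucp3, Plin2 and Cd36 carry the only filled symbols, in the pooled comparison of diets.

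Within a single genotype no member passed the threshold by diet. In R403Q mice 2 of all genes did (0.0116%), and in WT mice 5 did (0.0289%). At an unadjusted p under 0.05, 7 of 10 members were higher with EMPA in R403Q mice, where 7.06% of all genes were, and 7 of 10 in WT mice, where 5.94% were, and 0 were lower in either, where 6.36% and 5.08% of all genes were. The median log2 fold change of the members was 0.35 in R403Q mice and 0.38 in WT mice, against -0.0036 for all genes in both. Since the members were chosen with earlier results of these data known, this excess over all genes is a description and not a test. These comparisons shared no mice, but mice of both genotypes shared cages on CD and, in part, on EMPA. Both comparisons also came from the same fit, with a shared estimate of the spread. DESeq2 called Acot1 in R403Q mice (adjusted p = 0.0114) and Angptl4 (0.0129), Plin2 (0.0129) and Acot1 (0.0197) in WT mice. Whether EMPA acted differently in R403Q and WT mice was tested as an interaction, which passed for 0 members and 0 genes with edgeR and with DESeq2, and at an unadjusted p under 0.05 for 0 members and 567 genes (3.28%) with edgeR. It was 0.05 ± 0.47 on the log2 scale for Acot1, 0.06 ± 0.41 for Ucp3, -0.39 ± 0.53 for Angptl4 and -0.20 ± 0.17 for Plin2, and with such errors equal effects in both genotypes are not shown.

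The genotype comparison on CD asked whether these genes differed between R403Q and WT hearts on the diet without EMPA. None of the 10 passed (1.44% of all genes did), and 8 of 10 were fitted lower in R403Q mice, where 52.5% of all genes were fitted higher, with a median log2 fold change of -0.15 against 0.011 over all genes. Ppara had the largest fitted deficit, -0.45 ± 0.15 (adjusted p = 0.107, edgeR), with 6 of 7 R403Q-CD mice below the median WT-CD mouse, and Lpl followed (-0.33 ± 0.13, adjusted p = 0.17). Ppara passed in a fit with cage as a fixed factor, which compares mice of both genotypes within cages (-0.57, adjusted p = 0.0306), and without R403Q-CD replicate 3 (-0.57, adjusted p = 0.0232). Without R403Q-CD replicate 2 the fitted values were -0.35 for Ppara (adjusted p = 0.12) and -0.23 for Lpl (adjusted p = 0.166). Over the 12 fits that each left out a mouse, Ppargc1a ran from -0.32 to -0.072 and Plin5 from -0.20 to -0.051. Cd36 (-0.083 to 0.0049), Acot1 (-0.38 to 0.11) and Ucp3 (-0.24 to 0.18) changed sign. Ppara, Lpl and Pnpla2 stayed below 0, and Angptl4 and Plin2 above. The count of 8 and its median thus depend on single mice. With EMPA in both genotypes, 0 of the 10 passed, where 0.0578% of genes did. Ppargc1a (-0.48 ± 0.21, adjusted p = 0.285) and Ppara (-0.34 ± 0.18, adjusted p = 0.377) were again fitted below WT, and the call of Ppargc1a was made in a fit of those groups alone (adjusted p = 0.0485). Angptl4, Ucp3, Acot1 and Plin2 had fitted differences between -0.11 and 0.05.

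**Figure D3:**
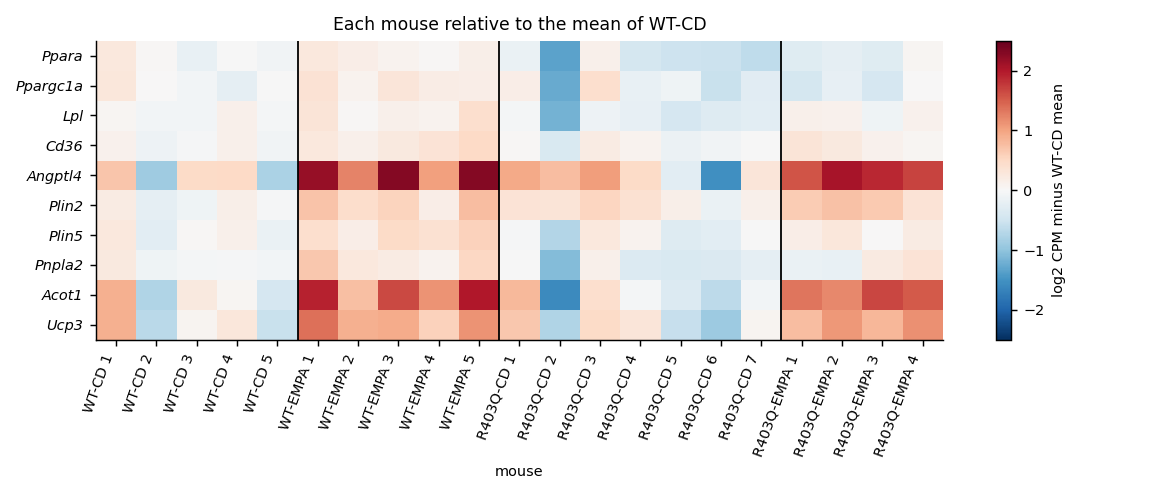
Log2 CPM of each gene (rows) in each mouse (columns, by group) minus the mean of WT-CD, in colour (blue lower, red higher). R403Q-CD replicate 2 is low for Ppara, Ppargc1a, Lpl, Pnpla2 and Acot1, and the EMPA columns are reddest in the rows of Angptl4, Acot1 and Ucp3.

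Because the labels give each cage 1 diet, cage means were compared too, 3 EMPA with 4 CD cages. All 3 EMPA cages were above all 4 CD cages for Angptl4, Acot1, Ucp3, Plin2, Cd36, Plin5 and Lpl, 7 of 10, as for 6.14% of all genes. An exact two-sided permutation test over the 35 ways of assigning diet, whose smallest possible p is 0.0286, gave p = 0.0286 for Angptl4, 0.0571 for Acot1, Ucp3, Plin2, Cd36 and Lpl, 0.0857 for Plin5, 0.143 for Pnpla2, 0.257 for Ppara and 0.543 for Ppargc1a. Adjusted over these 10 tests, the smallest of these p-values was 0.0952. Cages on CD were themselves spread. The WT and R403Q mouse of the first CD cage had 22.8 and 21.6 CPM of Acot1 and 117 and 101 CPM of Ucp3, each the highest of its group, against cage means of 8.73 to 13.8 CPM of Acot1 and 46.5 to 81.3 CPM of Ucp3 in the other CD cages. The EMPA cages had means of 35.5, 28.9 and 41.5 CPM of Acot1 and 134, 112 and 130 CPM of Ucp3.

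**Figure D4:**
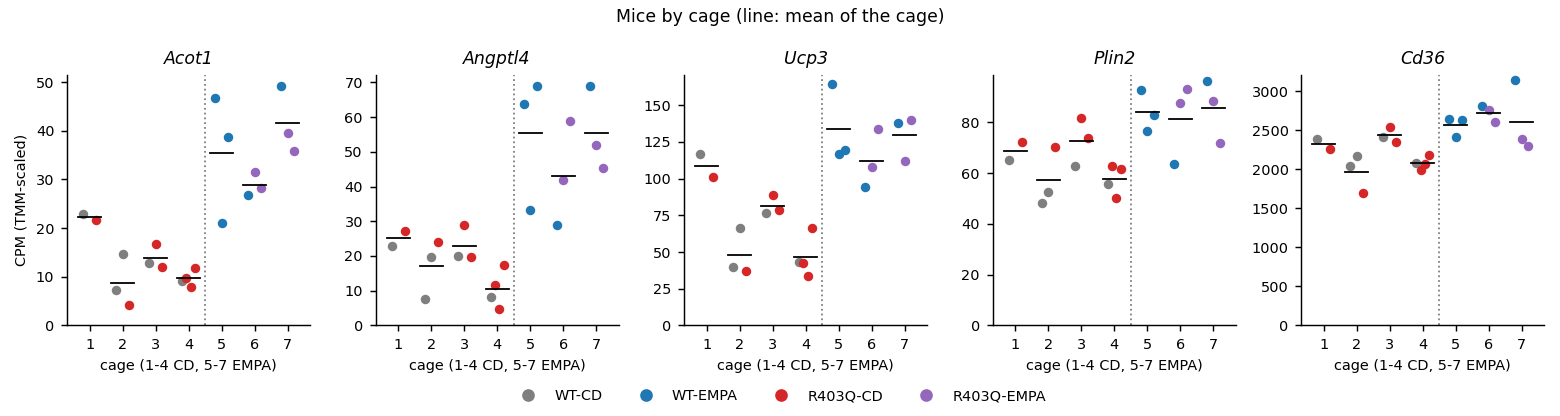
CPM of Acot1, Angptl4, Ucp3, Plin2 and Cd36 (vertical axes from 0) in each mouse by cage, cages 1 to 4 on CD and 5 to 7 on EMPA; colours are the 4 groups and lines cage means. For each of these genes the 3 EMPA cage means lie above the 4 CD cage means, as for 6.14% of all genes.

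Levels of the members were correlated from mouse to mouse. Over the 45 pairs, Pearson's correlation of deviations from the group means across 21 mice ran from 0.134 to 0.936 (median 0.679), and without R403Q-CD replicate 2 from 0.212 to 0.894 (median 0.612). Over all pairs of the 17309 genes tested, the median was -0.001, the lower 5% of pairs lay under -0.523 and the upper 5% above 0.535. These are descriptions, since all genes of a mouse share its library, tissue piece and cage. Among all genes tested, the gene most like Ppara after Wnk2 (0.937) was Ppargc1a (0.936, and 0.853 without that mouse), and that most like Plin2 was Angptl4 (0.821). Pdk4, the kinase that shuts off pyruvate dehydrogenase, was most like Angptl4 (0.853) and second for Ucp3 (0.891), where Gm17251 was first (0.935). Acot2, the mitochondrial paralog of Acot1, was most like Acot1 (0.916), followed by Mlycd (0.911) and Slc27a1 (0.906). The gene most like Pnpla2 was Vldlr, the lipoprotein receptor (0.970), then Txlnb (0.970) and Map7 (0.964). For Plin5 these were Agpat3 (0.922), Mlycd (0.908) and Myzap (0.906), and for Cd36 they were Myzap (0.905), Slc25a20 (0.894) and Plin5 (0.890). Lpl was most like Nceh1 (0.938, but 0.741 without that mouse), Acadsb (0.935) and Dbt (0.932), Ppargc1a after Ppara like Pfkfb1 (0.896) and Gm9923 (0.889), and the third place went to Arhgap26 (0.930) for Ppara, Igf2bp2 (0.840) for Angptl4, Ofd1 (0.799) for Plin2 and Rhobtb3 (0.889) for Ucp3, with Tmem11 second for Angptl4 (0.851) and Plin2 (0.814). Among the genes named here, some first places changed without R403Q-CD replicate 2: Tmem11 (0.823) then stood level with Angptl4 (0.822) for Plin2, Ucp3 with Pdk4 (both 0.894) for Angptl4, Map7 (0.956) above Vldlr (0.945) for Pnpla2, and Acadsb (0.778) above Nceh1 (0.741) for Lpl.

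Of a list of 36 other PPAR alpha target genes, 30 were tested, of which 9 rose with EMPA over both genotypes and 0 fell (adjusted p under 0.05, edgeR). Of all genes tested, 1.98% rose and 0.936% fell. The median log2 fold change was 0.27, with 27 fitted above 0 and 3 below, where 47.6% of all genes were fitted above 0. Acot2 went from 81.3 ± 20.3 CPM (SD, n = 5) in WT-CD to 142 ± 23 CPM in WT-EMPA and from 72.5 ± 16.3 CPM (n = 7) to 122 ± 8.05 CPM (n = 4) in R403Q mice (log2 fold change 0.78 ± 0.12, adjusted p = 0.00466). Pdk4 changed by 1.15 ± 0.26 (adjusted p = 0.0253), from 1753 ± 895 CPM and 1816 ± 949 CPM on CD to 4004 ± 1544 CPM and 3933 ± 950 CPM on EMPA in WT and R403Q mice. Retsat, a retinol saturase (0.53 ± 0.09, adjusted p = 0.00795), and Mlycd, which degrades the malonyl-CoA that blocks fatty acid entry into mitochondria (0.46 ± 0.10, adjusted p = 0.0239), rose as well. The list's count was 5 with cage as a random effect and 13 with DESeq2. Without 1 mouse it ran from 4, when R403Q-EMPA replicate 3 or 4 was left out, to 12, when R403Q-CD replicate 2 was, and it was 5 without WT-CD replicate 5 or WT-EMPA replicate 1 or 5. On CD, 24 of these 30 genes were fitted lower in R403Q than in WT mice (median -0.17), with 0 past the threshold. Over all genes, 52.5% were fitted higher there, with a median of 0.011. These values include R403Q-CD replicate 2.

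**Figure D5:**
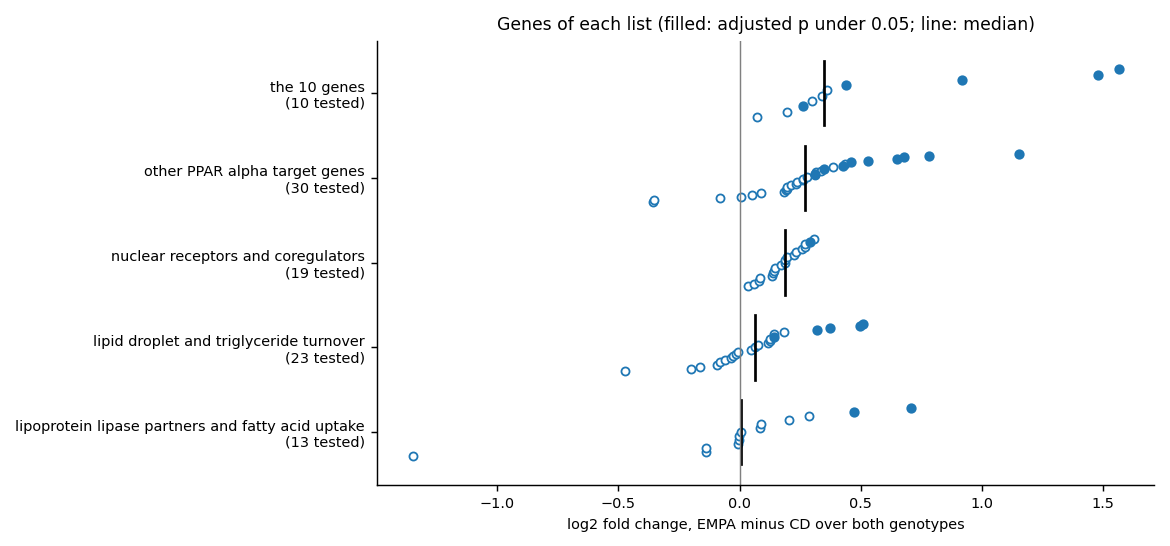
Log2 fold change between EMPA and CD over both genotypes (horizontal axis) of each tested gene of the 10 described here and of 4 further lists; filled points have an adjusted p under 0.05 and vertical lines are medians. All filled points are to the right of 0, and the medians of the lipid droplet and lipoprotein lipase lists lie near it.

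Genes of droplet building and triglyceride turnover were divided: 5 of 23 rose (1.98% of all genes did) and 0 fell (0.936% of all genes did), with a median of 0.064. Those were Lipe, hormone-sensitive lipase (0.50 ± 0.09, adjusted p = 0.00938), Gpam, which starts glycerolipid synthesis (0.51 ± 0.11, adjusted p = 0.0149), the acyltransferases Agpat3 (0.37 ± 0.07, adjusted p = 0.00847) and Agpat1 (0.14 ± 0.04, adjusted p = 0.0348), and Fitm2, which helps droplets form (0.32 ± 0.08, adjusted p = 0.0385). This count ran from 3 to 6 without 1 mouse, the 7 mice that gave 3 being WT-CD replicates 2 and 5, WT-EMPA replicate 5, R403Q-CD replicate 5 and R403Q-EMPA replicates 2, 3 and 4, and was 2 with cage as a random effect. Among 13 tested partners of lipoprotein lipase and uptake proteins (15 listed), 0 fell (0.936% of all genes did) and 2 rose (1.98% of all genes did). Those that rose included Acsl3, a long-chain acyl-CoA synthetase (0.47 ± 0.07, adjusted p = 0.00262), and the median of the list was 0.0061. Of 19 nuclear receptors and coregulators, Ep300, a histone acetyltransferase, was higher (0.29 ± 0.08, adjusted p = 0.0431), as were 1.98% of all genes. All 19 were fitted above 0 (median 0.19), as were 47.6% of all genes. The call of Ep300 was lost without a filter on low counts and with cage as a random effect. Without 1 mouse the list's count ran from 0, in 14 of the 21 fits, to 6, without R403Q-CD replicate 3. None of these 4 lists had a gene past the threshold in the genotype comparisons, in the diet comparisons within a genotype or in the interaction (edgeR).

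Other genes moved with the diets beside these. In the pooled comparison, where 1.98% of all genes were higher and 0.936% lower, 2 of 16 clock genes were higher, Arntl (1.70 ± 0.39, adjusted p = 0.0244) and Clock (0.36 ± 0.09, adjusted p = 0.0411). Of the same 16, 5 were lower, among them Ciart (-1.43 ± 0.25, adjusted p = 0.00698) and Dbp (-1.02 ± 0.24, adjusted p = 0.0289). Lower too were 2 of 10 glucocorticoid-responsive genes, Tsc22d3 (-0.43 ± 0.09, adjusted p = 0.012) and Per1 (-0.34 ± 0.09, adjusted p = 0.0354), which is also 1 of those 5 clock genes. Without 1 mouse the clock counts ran from 0 to 3 higher and from 1 to 8 lower, with 0 higher and 1 lower without WT-CD replicate 5 or R403Q-EMPA replicate 3, and with cage as a random effect they were 0 and 1. Of 5 red blood cell markers 4 were higher (1.98% of all genes were), and the sum of the 5 ran from 706 to 1280 CPM in WT-CD, 877 to 1717 CPM in R403Q-CD, 1235 to 2003 CPM in WT-EMPA and 1214 to 2660 CPM in R403Q-EMPA. The part of these in the differences of the 10 genes was not tested. Adipocytes, which hold much Plin2, Lpl, Cd36 and Pnpla2, were followed by 8 markers, led by Fabp4, which endothelium also expresses and which, with Plin1 and Cidec, stands in the pathway lists too. Of these, 0 of 7 tested differed by diet, and their sum was 649 to 826 CPM in WT-CD, 659 to 928 CPM in WT-EMPA, 823 to 1268 CPM in R403Q-CD and 891 to 1207 CPM in R403Q-EMPA. Cardiomyocyte, macrophage, fibroblast, atrial and skeletal muscle markers had 0 genes past the threshold by diet in edgeR's pooled comparison, and 1 of 7 endothelial markers, Kdr, was higher (0.35 ± 0.08, adjusted p = 0.0217). At an unadjusted p under 0.05 in that test, 3 of 7 fibroblast markers were lower and 1 higher (median -0.13). Of the 8 cardiomyocyte markers, 2 were higher and 0 lower (median -0.0098). Over all genes, 10.7% were higher and 9.41% lower. The part of these markers in the differences of the 10 genes was not tested. The 4 atrial markers tested were also fitted lower with EMPA over both genotypes, by a median log2 fold change of -2.31. Of these, 3 were lower at an unadjusted p under 0.05 (edgeR), as were 9.41% of all genes. In R403Q mice the median was -3.21, and 4 of 4 were lower at that level (6.36% of all genes). In WT mice the median was -1.41, with 3 fitted lower, 1 higher and 0 past that level. Nppa, the most abundant, averaged 434 CPM in WT-CD and 582 CPM in WT-EMPA. Its means were 2873 CPM in R403Q-CD and 782 CPM in R403Q-EMPA. Without R403Q-CD replicate 2, which had the highest sum, the medians for these atrial markers were -1.61 over both genotypes and -1.73 in R403Q mice. Their sum was 246 to 724 CPM in WT-CD, 438 to 749 CPM in WT-EMPA, 934 to 11604 CPM in R403Q-CD and 432 to 1099 CPM in R403Q-EMPA, and their part in the differences of the 10 genes by diet was not tested. The 8 cardiomyocyte markers were present in every mouse, and the 7 skeletal muscle markers summed to at most 3.91 CPM. On CD, 2 of 7 macrophage markers, 1 of 4 tested atrial markers and 0 of 7 fibroblast markers were higher in R403Q than in WT mice at an adjusted p under 0.05 (edgeR), as were 0.884% of all genes. At an unadjusted p under 0.05, 7 of 7 macrophage markers and 5 of 7 fibroblast markers were higher, as were 11.8% of all genes. The median log2 fold change was 0.59 for the macrophage markers and 0.88 for the fibroblast markers (0.40 and 0.41 without R403Q-CD replicate 2), and all 7 of each were fitted above 0. The macrophage markers summed to 264 to 360 CPM in WT-CD and 380 to 681 CPM in R403Q-CD, and the fibroblast markers to 1105 to 1832 CPM and 1508 to 5184 CPM. Of the 8 cardiomyocyte markers, 6 were fitted lower in R403Q-CD than in WT-CD, 0 at an adjusted and 2 at an unadjusted p under 0.05 (9.15% of all genes), with a median of -0.12, and of -0.062 without R403Q-CD replicate 2. The cardiomyocyte markers summed to 97030 to 105319 CPM in WT-CD and 62294 to 98859 CPM in R403Q-CD. For these lists, their part in the fitted deficits of Ppara and Lpl was not tested.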

How the data were processed

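RNA of frozen left ventricle from 21 mice was selected for poly(A) and sequenced in pairs. The authors aligned pairs to mm10 with STAR 2.6.0c and made the deposited counts per gene with featureCounts (Subread 1.6.2; Ensembl build 100; uniquely aligned proper pairs on the gene's strand, mitochondrial genes left out). The deposited log2 values are the same counts after variance stabilization with DESeq2 1.32.0 by the authors. Counts of reads shared between paralogs are lost by unique alignment. Per the labels, mice were assigned to groups by genotype and diet, and each sample was a separate mouse.

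In R 4.3.3, edgeR 4.0.16 was run on the counts: filterByExpr dropped genes under a minimum count of 10, TMM set the scaling, and 1 quasi-likelihood model held the 4 groups. The threshold was a Benjamini-Hochberg adjusted p under 0.05 over 17309 genes. The comparison over both genotypes is the mean of the diet differences in WT and R403Q. The study's own methods used DESeq2's Wald test on 3 groups, and here DESeq2 1.42.0 was an alternative, as were limma 3.58.1 on the deposited values, a 3-group fit and a 2-group fit, other scalings, no filter, cage terms, and leaving out each mouse. The cage means, the counts of the lists under each alternative, the correlations without R403Q-CD replicate 2 and those over all pairs of genes were added after seeing the data. Scripts were tested on simulated data. The prior count of log2 CPM in correlations was 2. A count of 3, the smallest level told from none, is 0.0621 to 0.127 CPM in these libraries and covers counting error only.

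Symbols came from GENCODE vM21, which named 55104 of 55450 genes and also gave positions and exon lengths, and promoter sequences from RefSeq (GRCm38.p6); 0 columns had no sample. In 2 genes, Cd36 and Pnpla2, the bases after the RefSeq start did not open a GENCODE transcript. The members and lists were chosen with earlier results of these data known. Named genes were the 10 members, from each of the 4 pathway lists up to 6 genes past the threshold by smallest p, and the 3 genes most like each member; the paralogs Acot2 and Ucp2, and the genes of the marker, clock and glucocorticoid lists past the threshold, are named as such. Some genes of the lists that passed the test are counted but not reported here by name.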

Additional observations from a re-analysis of the deposited data

Results flagged for a closer look

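In 40 sets of values, the 10 genes in each of the 4 groups, 3 mice lay farther from the nearest mouse than Dixon's 95% limit allows, where about 1 in 20 sets is marked by chance. Lpl was 3222 CPM in R403Q-CD replicate 2, the library with the fewest cardiomyocyte markers, below the other 6 mice of its group. Lpl was also low, at 6784 CPM, in R403Q-EMPA replicate 3. Pnpla2 was high, at 570 CPM, in WT-CD replicate 1. No explanation of these values was tested.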

How the results depend on the processing

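The count of members higher with EMPA over both genotypes was 5, against 8 with DESeq2 and 3 with cage as a random effect in voom, and it ran from 3 (without R403Q-EMPA replicate 4) to 7 (without R403Q-CD replicate 2 or 3) when 1 mouse was left out. Angptl4, Acot1 and Plin2 kept their call in all 28 fits made, Ucp3 in 26 and Cd36 in 8, and the fitted direction of all 10 members was upward in each. The count was 0 in the other comparisons. There it was 1 between R403Q-CD and WT-CD with cage as a fixed factor, 1 between R403Q-EMPA and R403Q-CD and 3 between WT-EMPA and WT-CD with DESeq2, and 1 between R403Q-EMPA and WT-EMPA in a fit of those groups alone. Leaving out 1 mouse moved it between 0 and 1 for R403Q-CD against WT-CD (1 without R403Q-CD replicate 3) and for R403Q-EMPA against R403Q-CD (1 without R403Q-CD replicate 1).

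Values that changed sign were small and not past the threshold. Library size alone gave 0.021 for Cd36 between R403Q-CD and WT-CD and 0.017 for Ucp3 between R403Q-EMPA and WT-EMPA. In the latter comparison cage as a fixed factor gave 0.10 for Angptl4 and 0.11 for Ucp3, and as a random effect 0.022 and 0.0028. The interaction of Pnpla2, close to 0, became 0.0052 with no filter, 0.14 and 0.053 with cage as a fixed factor and a random effect, and 0.026 with limma. With 1 mouse left out, R403Q-CD minus WT-CD ranged from -0.083 to 0.0049 for Cd36, -0.38 to 0.11 for Acot1 and -0.24 to 0.18 for Ucp3, and R403Q-EMPA minus R403Q-CD from -0.20 to 0.057 for Ppargc1a. R403Q-EMPA minus WT-EMPA ranged from -0.25 to 0.023 for Angptl4, -0.028 to 0.12 for Plin2, -0.26 to 0.019 for Acot1 and -0.13 to 0.076 for Ucp3, and the interaction from -0.10 to 0.088 for Pnpla2, -0.23 to 0.26 for Acot1 and -0.22 to 0.21 for Ucp3.

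Over all genes, the pooled diet count of 504 was 983 with DESeq2, 314 with no filter, 102 with cage as a random effect and 122 to 929 without 1 mouse. The R403Q-CD against WT-CD count of 250 was 970 with DESeq2, 1128 with cage as a fixed factor, 472 as a random effect, 98 with 3 groups, 28 with those 2 groups and 31 to 1045 without 1 mouse. Library size alone called 274 higher and 78 lower there, against 153 and 97. Cage terms cannot be fitted to diet as fixed factors. The causes were not tested. The replicate numbers only name mice in order of accession and pair none, so the fits blocked by cage are the ones given above.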
